A study of Homo sapiens with 4 samples.

Results

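The genes described here are a pair of acetyl-lysine readers of the BET family, BRD2 and BRD3, and 5 genes that make up or hold in check the transcription elongation kinase P-TEFb, namely HEXIM1, LARP7, CDK9, CCNT1 and CCNT2. They were taken by symbol from the annotation deposited with the arrays, with every probe that carries one of the 7 symbols. This gave 13 probes and 22 spots, out of 48908 probes and 51599 spots for 34755 named genes. SUM149 is a cell line from an inflammatory breast cancer. Attached cells were left untreated or exposed to 2.5 uM of ACY1215 (Ricolinostat), an inhibitor of the tubulin deacetylase HDAC6, for 3, 6 or 12 h, and total RNA was measured on 4 two-colour Agilent arrays, 1 array a time point. Cy5 held the sample and Cy3 a common reference labelled as RNA pooled from untreated and treated SUM149. No array of vehicle-treated cells was analysed here, so treatment and time in culture cannot be told apart. The authors describe later HDAC6 inhibitors as more selective than ACY1215 with regard to class I deacetylases.

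BET proteins dock on acetylated histone tails through paired bromodomains and help recruit the machinery that starts and extends transcripts. P-TEFb consists of the kinase CDK9 with cyclin T1 or cyclin T2 (CCNT1, CCNT2), and it releases paused RNA polymerase II into productive elongation. A large share of P-TEFb is stored inactive in a particle built on the small nuclear RNA 7SK, in which HEXIM1 blocks the kinase while LARP7 and the capping enzyme MEPCE keep the RNA stable. HEXIM1 took its name from its induction by hexamethylene bis-acetamide, and it is known to rise when P-TEFb is released by BET or deacetylase inhibitors.

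HEXIM1, LARP7 and BRD3 were the genes of the 7 that differed most from untreated cells, so the 250 bases upstream of an annotated start of each are shown. Sequences are from RefSeq on GRCh38.p14, in transcript direction, and capitals mark every match on either strand to the GC box (GGGCGG), the CCAAT box, the TATA box (TATAAA), the E-box (CACGTG) or the cAMP response element (TGACGTCA), with overlapping matches counted apart.
HEXIM1, chr17:45148225-45148474, plus strand: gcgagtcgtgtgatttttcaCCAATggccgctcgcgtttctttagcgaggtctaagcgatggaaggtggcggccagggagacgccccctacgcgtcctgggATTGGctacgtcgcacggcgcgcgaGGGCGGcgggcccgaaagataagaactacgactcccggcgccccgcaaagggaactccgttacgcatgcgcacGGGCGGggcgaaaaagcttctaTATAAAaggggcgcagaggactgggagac
LARP7, chr4:112636893-112637142, plus strand: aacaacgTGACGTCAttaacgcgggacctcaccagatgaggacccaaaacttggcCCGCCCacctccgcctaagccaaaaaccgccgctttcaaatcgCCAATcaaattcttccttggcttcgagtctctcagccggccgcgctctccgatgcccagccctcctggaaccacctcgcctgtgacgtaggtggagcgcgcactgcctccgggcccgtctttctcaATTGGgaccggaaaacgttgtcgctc
BRD3, chr9:134068027-134068276, minus strand: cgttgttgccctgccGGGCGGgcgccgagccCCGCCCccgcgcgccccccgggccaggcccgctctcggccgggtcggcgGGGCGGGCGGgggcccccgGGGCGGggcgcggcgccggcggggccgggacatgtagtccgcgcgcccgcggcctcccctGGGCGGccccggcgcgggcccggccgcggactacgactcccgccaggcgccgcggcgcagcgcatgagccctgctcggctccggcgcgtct

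The HEXIM1 window held 2 GC boxes, 2 CCAAT boxes and a TATA box close to the start. The first of the LARP7 windows held a GC box, 2 CCAAT boxes and a cAMP response element, and the BRD3 window held 6 GC boxes in a sequence with 86.8% G and C. The other LARP7 window, which is not shown, held a GC box and none of the other motifs. Among 27305 promoter windows of the same length, 42.3% held a GC box, 33.0% a CCAAT box, 11.1% a TATA box, 6.49% an E-box and 1.77% a cAMP response element. These matches describe the letters of the windows, and no binding was measured.

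All values below are log2 ratios of Cy5 over Cy3, or the difference of such a ratio between a treated array and the untreated array, which is called the log2 change. The only error that single arrays allow is the spread between spots of 1 probe. Over 300 probes printed at 9 or more spots, the SD of a log2 change was 0.15 at 3 h, 0.12 at 6 h and 0.12 at 12 h, and it covers printing, hybridisation and scanning but no difference between cultures. No test was therefore made, and a gene was called changed when its log2 change reached 1 in size with a probe clear of background in both dyes. The median Cy5 signal was between 36 and 40 units over a local background of 24 units on each array, and 3.34% of spots on the untreated array and 4.61% on the 3 h array lay in damaged areas. The pooled reference did not match its label throughout, since for 309 of 34755 genes its dimmest signal was at least 8-fold above the brightest sample signal. This held for 0 of the 7 genes described here, whose normalized Cy3 level moved by 0.07 to 0.35 on the log2 scale across the 4 arrays. Of 16 epithelial markers, basal ones and others such as CDH1, EPCAM, KRT8 and KRT18, 13 were above background in untreated cells by the probe taken for the gene. TP63 was not, and the spots of KRT6A and KRT14 were set aside there as outliers, while a second KRT14 probe was above background. Luminal hormone receptor markers (5 of 7) and fibroblast or endothelial markers (7 of 8) were above background as well. So were 4 of 4 leukocyte markers found on the array, out of 6 listed. Detection on these arrays therefore did not tell cell types apart.

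**Figure D1:**
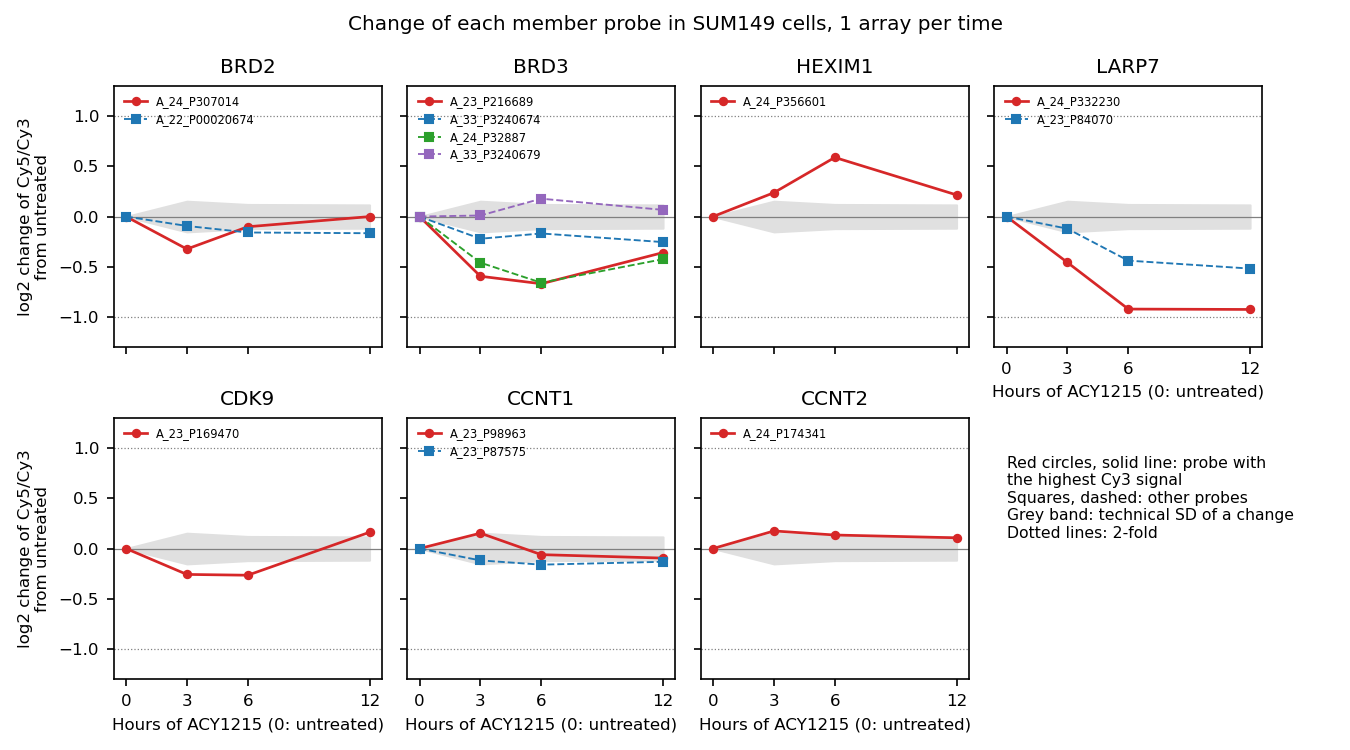
Log2 change of Cy5 over Cy3 from untreated cells (vertical axis) against hours of ACY1215 (horizontal axis) for the 13 probes of the 7 genes, 1 array a time point, with the technical SD as a grey band and 2-fold as dotted lines. LARP7 reached -0.93 at 12 h, BRD3 -0.67 and HEXIM1 0.59 at 6 h, and no probe crossed 2-fold. With Agilent's processed signals the dim second probes of CCNT1 at 6 h and of BRD2 at 12 h did. LARP7 did so at 6 and 12 h under median centring of each array, and under further settings given in the text. Under median centring CDK9 and CCNT2 at 12 h turned from above to below 0, where the median of all genes was -0.16.

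None of the 7 genes was called changed at 2-fold. At 3, 6 and 12 h the count was 0 of 7, while 2.08%, 3.76% and 3.46% of all genes measured passed 2-fold in either direction. At a lower threshold of 1.5-fold BRD3 was lower at 3 h, BRD3 and LARP7 were lower and HEXIM1 was higher at 6 h, and LARP7 was lower at 12 h. The HEXIM1 value fell short of 1.5-fold with median centring (0.50), Agilent's processed signals (0.57) and the authors' table (0.56). BRD3 fell short at 3 h with median centring (-0.52) and with the mean of all its probes (-0.32), and at 6 h with the latter (-0.33). Over all genes measured, 1.96% were lower and 6.9% higher by 1.5-fold at 3 h, 4.42% lower and 9.4% higher at 6 h, and 5.13% lower and 8.08% higher at 12 h. The 1, 3 and 1 of 7 genes past 1.5-fold thus stand beside 8.87%, 13.8% and 13.2% in either direction. The median log2 change of the 7 genes was -0.26 at 3 h, -0.10 at 6 h and -0.0006 at 12 h, against 0.01, 0.02 and 0.01 over all genes measured. Under median centring it was -0.36 at 6 h and -0.39 at 12 h, beside -0.08 and -0.16 over all genes. With outlier spots kept the median of the 7 genes was -0.035 at 3 h.

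LARP7, the protein that binds the tail end of 7SK and protects it, gave the largest difference among the 7 genes. On its brighter probe (A_24_P332230, NM_016648) the Cy5 signal was 1133 units in untreated cells, 873 at 3 h, 473 at 6 h and 429.5 at 12 h. The Cy3 signal of the same spot stayed between 671.5 and 684.5 units. The log2 ratio accordingly went from 0.30 in untreated cells to -0.16, -0.62 and -0.63. The 3 treated arrays were all below the untreated array, and the 6 h and 12 h values differed by 0.0039, which is within the technical SD of 0.08 for that step. The log2 change was -0.46 at 3 h, -0.92 at 6 h and -0.93 at 12 h, which corresponds to levels 1.37-fold, 1.89-fold and 1.90-fold lower. At 6 h 1.28% of all genes measured had a change this low or lower, and at 12 h 1.46%.

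The second LARP7 probe (A_23_P84070, also NM_016648) was also lower on each treated array, by less than the first. Its Cy5 signal was 983.5 units in untreated cells, 973 at 3 h, 629.5 at 6 h and 565 at 12 h. The log2 change was -0.12 at 3 h, within the technical SD, and then -0.44 and -0.52. On the untreated array its spot was inside a damaged area, and the part of that in the difference between the probes was not tested. Over all alternatives the 12 h change of LARP7 lay between -1.27 and -0.72, below 0 in each, and it passed 2-fold with median centring, with Agilent's processed signals and with Cy5 alone.

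HEXIM1, the inhibitor of the stored kinase, was higher on each treated array and highest at 6 h. It was measured by 1 spot of 1 probe (A_24_P356601, NM_006460). The Cy5 signal was 240.5 units in untreated cells, 375.5 at 3 h, 380 at 6 h and 279.5 at 12 h, over a Cy3 signal of 168, 197, 186 and 205 units. The log2 ratio was 0.28, 0.51, 0.86 and 0.49 on the same arrays. The values at 3 h and 12 h lay between untreated and 6 h and were within the technical SD of each other, though not under median centring. There the log2 change was 0.39 at 3 h and 0.03 at 12 h, beside 0.08 and -0.16 for the median of all genes. Without that centring the log2 change of HEXIM1 was 0.24 at 3 h, 0.59 at 6 h and 0.22 at 12 h, or 1.55, 4.90 and 1.86 technical SDs. At 6 h 9.31% of all genes measured had a change this high or higher, and at 12 h 24.8%. Over the alternatives the 3 h change lay between 0.11 (authors' table) and 0.47 (Cy5 alone) and the 6 h change between 0.50 and 0.70, while the 12 h change lay between 0.03 (median centring) and 0.38 (Cy5 alone).

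**Figure D2:**
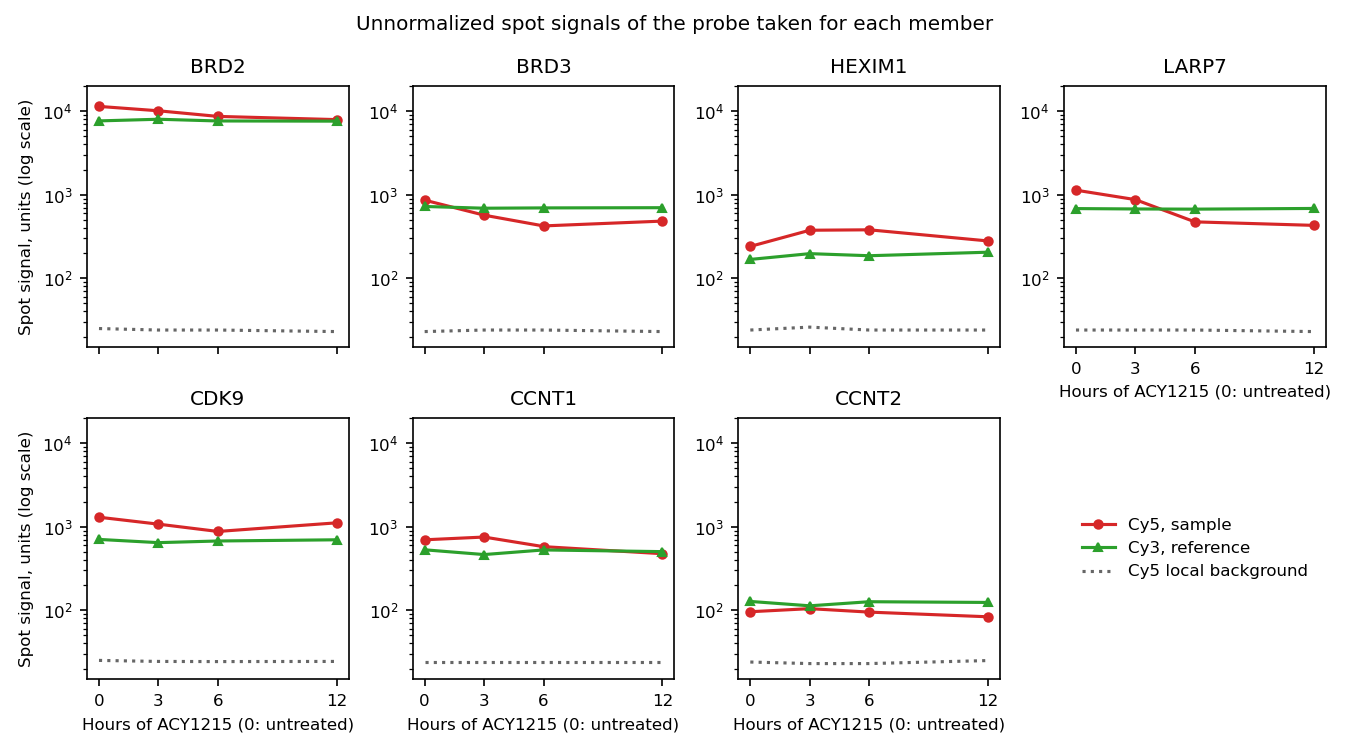
Unnormalized spot signal in units on a log axis (vertical) against hours of ACY1215 (horizontal) for the probe taken for each of the 7 genes, with Cy5 (sample) as red circles, Cy3 (reference) as green triangles and the Cy5 local background as a dotted line. The Cy5 line of LARP7 dropped from 1133 to 429.5 units and crossed a flat Cy3 line, while the Cy5 line of HEXIM1 stayed above its Cy3 line on all 4 arrays.

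BRD3 was the reader with the larger difference, and its 4 probes did not agree in size. On the brightest probe in Cy3 (A_23_P216689, NM_007371) the Cy5 signal was 860.5 units in untreated cells, 569 at 3 h, 423 at 6 h and 483 at 12 h. The log2 ratio was -0.15, -0.74, -0.82 and -0.51, so all 3 treated arrays were below the untreated array and 12 h lay closer to it than 6 h did. The log2 change was -0.59 at 3 h (1.51-fold lower), -0.67 at 6 h (1.59-fold lower) and -0.36 at 12 h. Changes this low or lower were seen in 1.89%, 3.21% and 11.4% of all genes measured.

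The other BRD3 probes cover the same transcript or an alternative one. A_24_P32887 (NM_007371) followed the first probe with -0.46, -0.66 and -0.42. A_33_P3240674 (NM_007371) gave -0.22, -0.17 and -0.25, which turned to 0.12 at 3 h and 0.05 at 12 h with Cy5 alone, beside a Cy3 signal that ranged from 436 to 565 units, the widest range of log2 Cy3 (0.35) among the 13 probes. A_33_P3240679, annotated to the transcript ENST00000371842, gave 0.01, 0.18 and 0.07 at Cy5 signals of only 54 to 67.5 units. The first probe and A_24_P32887 were below 0 at each time under every alternative run on them, and the mean over all 4 probes was -0.32 at 3 h, -0.33 at 6 h and -0.24 at 12 h.

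BRD2, the other reader, was bright and differed less than BRD3 on the probes taken for them. Its probe A_24_P307014 (NM_005104) had a Cy5 signal of 11396.5 units in untreated cells, 10100 at 3 h, 8652 at 6 h and 7921 at 12 h. The log2 ratio, which takes the brightness of the whole array into account, was -0.13, -0.45, -0.23 and -0.13. The log2 change was -0.32 at 3 h, 2.12 times the technical SD, and then -0.10 and -0.0006, which were within it. Under median centring the change of BRD2 was -0.36 at 6 h and -0.45 at 12 h, both beyond the technical SD. There the median of all genes was -0.08 at 6 h and -0.16 at 12 h, and not 0.02 and 0.01. With Cy5 alone the 12 h change of BRD2 was -0.12. A second probe (A_22_P00020674, ENST00000580234) had Cy5 signals of 24 to 30 units and was not well above background in Cy5 at 6 h and 12 h, so no change is read from it.

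CDK9, the kinase of P-TEFb, was lower at 3 h and 6 h and higher at 12 h, with no difference past 1.5-fold. Its probe (A_23_P169470, NM_001261) was printed at 10 spots, which made it the gene of the 7 with an error of its own. The log2 ratio was 0.43 ± 0.09 (SD over 7 spots) in untreated cells, 0.18 ± 0.10 (8 spots) at 3 h, 0.17 ± 0.08 (10 spots) at 6 h and 0.60 ± 0.04 (10 spots) at 12 h. The spots at 12 h lay between 0.55 and 0.66 and those at 6 h between 0.03 and 0.25, so the arrays at 6 h and 12 h did not overlap. The untreated spots lay between 0.28 and 0.59 and overlapped with those at 3 h and 12 h. Spots of 1 array share its RNA and are not replicates of a culture.

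**Figure D3:**
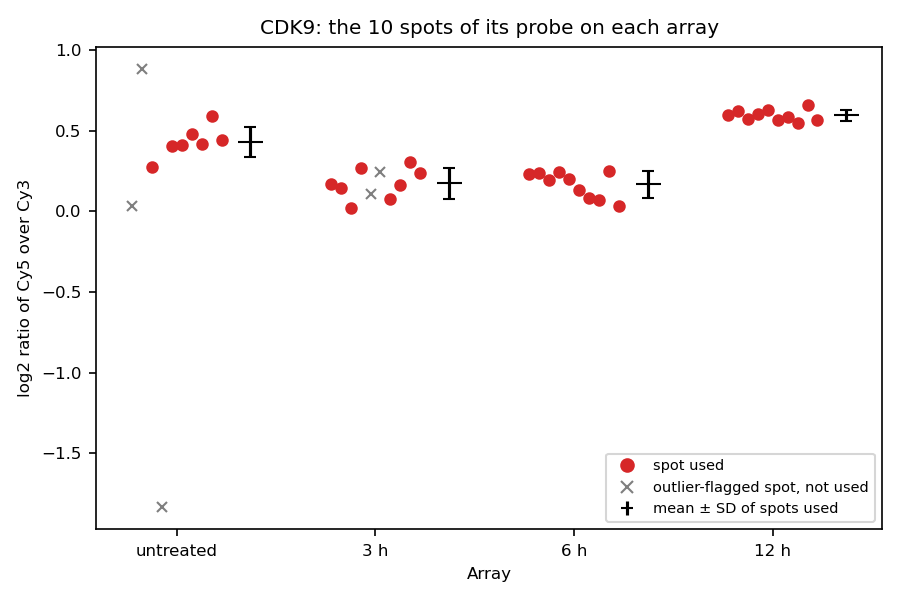
Log2 ratio of Cy5 over Cy3 (vertical axis) at each of the 10 spots of the CDK9 probe on each array (horizontal axis), with the mean ± SD of the spots used in black and outlier spots as grey crosses. The 12 h spots sit between 0.55 and 0.66, above all 6 h spots, and 3 untreated spots were set aside as outliers at 0.88, 0.03 and -1.83. Under median centring the 12 h array lay below the untreated one, where the median log2 change of all genes was -0.16.

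The log2 change of CDK9 was -0.26 at 3 h, -0.27 at 6 h and 0.16 at 12 h. Under median centring the 12 h value was -0.14, where the median of all genes was -0.16. Over the 5 spots that were free of outlier marks on all 4 arrays the log2 change of CDK9 was -0.28 ± 0.08, -0.32 ± 0.13 and 0.14 ± 0.09 (SD). This was lower at 5 of 5 spots at 3 h and 6 h and higher at 5 of 5 spots at 12 h. Between 6 h and 12 h the ratio was higher by 0.43 ± 0.06 at 10 of 10 spots, and this step lay between 0.32 and 0.48 over the alternatives. With the outlier spots kept, a setting tried after these spots were seen, the changes were -0.04, -0.04 and 0.38.

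The cyclins that pair with CDK9 differed little from the untreated level on the probes taken for them. The brighter CCNT1 probe (A_23_P98963, NM_001277842) had Cy5 signals of 697 units in untreated cells, 752 at 3 h, 577 at 6 h and 475 at 12 h. Its log2 change was 0.15, -0.06 and -0.10, each at or within about 1 technical SD, and -0.39 at 12 h under median centring. The dimmer probe (A_23_P87575, NM_001240), with 33 to 48 units in Cy5, gave -0.12, -0.16 and -0.13, but -0.39, -1.25 and -0.68 with Agilent's processed signals. CCNT2 (A_24_P174341, NM_058241) had Cy5 signals of 96, 104.5, 95 and 83.5 units on the untreated, 3 h, 6 h and 12 h arrays. Its log2 change was 0.18, 0.13 and 0.11. The 12 h value turned to -0.01 with Cy5 alone and to -0.06 under median centring, where the median of all genes was -0.16.

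The step from 6 h to 12 h does not use the untreated array and its damaged areas. In it CDK9 (0.43) and BRD3 (0.31) were higher and HEXIM1 (-0.37) was lower, each by more than the technical SD of 0.08. BRD2 was higher by 0.10, a sign that median centring turned to -0.09. CCNT1 (-0.03), CCNT2 (-0.03) and LARP7 (-0.0039) were within the technical SD, with signs that changed between alternatives. The 4 BRD3 probes differed in this step, with 0.31 and 0.23 on A_23_P216689 and A_24_P32887 and -0.09 and -0.11 on A_33_P3240674 and A_33_P3240679. Of the 7 genes 0 passed 1.5-fold in this step, beside 1.62% of all genes measured, and 0 passed 2-fold, beside 0.126%. Over the alternatives the step of HEXIM1 lay between -0.47 and -0.28 and that of BRD3 between 0.09, with the mean of all its probes, and 0.37.

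**Figure D4:**
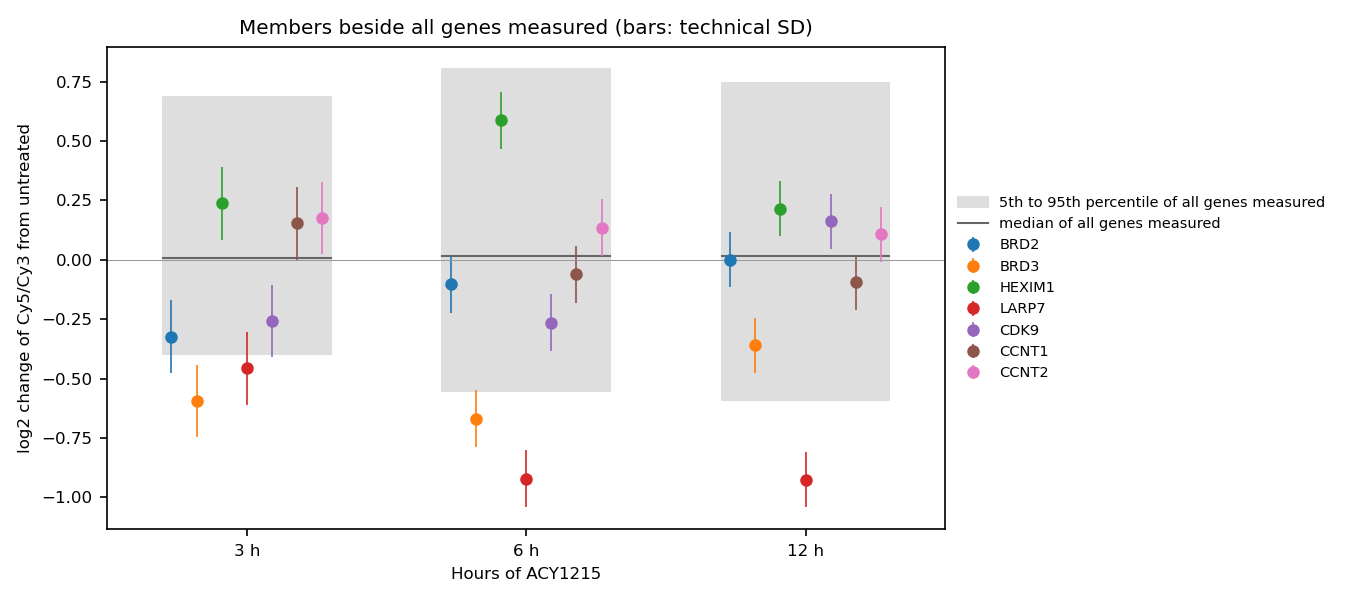
Log2 change of Cy5 over Cy3 from untreated cells (vertical axis) of the 7 genes as points with the technical SD as bars at 3, 6 and 12 h of ACY1215 (horizontal axis), with the 5th to 95th percentile of all genes measured in grey. BRD3 and LARP7 lie below the grey range at 3 h and 6 h and LARP7 alone does so at 12 h, while HEXIM1 stays inside it. Under median centring the 12 h points of CDK9 and CCNT2 were below 0, but not below the median of all genes, which was -0.16.

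Genes that work with P-TEFb formed a list of 20, with 7SK particle members, the super elongation complex that carries active P-TEFb, and related kinases and cyclins, and all 20 were measured. Their median log2 change was 0.43 at 3 h, 0.54 at 6 h and 0.40 at 12 h, against 0.01 to 0.02 over all genes, and 18, 15 and 15 of 20 were above 0, beside 51.4%, 52.8% and 52.4% of all genes measured. With Cy5 alone 12 of 20 were above 0 at 3 h, where the median of all genes was 0.01. Under median centring 12 of 20 were above 0 at 12 h. The median of all genes was -0.16 there, so the share of 52.4% does not apply to that count. With the mean of all probes of a gene the medians were 0.34, 0.35 and 0.22, and 16, 14 and 13 of 20 were above 0. Past 2-fold 2, 4 and 2 genes were higher, beside 1.71%, 2.81% and 2.34% of all genes measured, and 1 gene was lower at each time, beside 0.376%, 0.944% and 1.12%. The median was 0.17 at 12 h under median centring, where that of all genes was -0.16, and 0.20 at 3 h with Cy5 alone. The largest rise at 12 h was that of MLLT3, a subunit of the super elongation complex, at 0.99, 1.56 and 1.68, on a probe whose spot lay in a damaged area of at least 1 array. A second MLLT3 probe gave 0.83, 1.17 and 1.21, and with Cy5 alone the 3 h value of MLLT3 was 0.24.

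The gene lower past 2-fold was MEPCE, which caps 7SK in the particle that LARP7 stabilises. Its Cy5 signal was 701 units in untreated cells, 232 at 3 h, 130 at 6 h and 130.5 at 12 h. The log2 change was -1.32 at 3 h, -1.74 at 6 h and -1.66 at 12 h, and under the alternatives it was as low or lower, down to -2.22 at 6 h. MEPCE was measured by 1 spot of 1 probe, so its changes share the same untreated spot, also under the alternatives. HEXIM2, the paralogue of HEXIM1, was picked out after its values were seen. It was likewise measured by 1 spot of 1 probe. It gave -0.54, -0.69 and -0.84, at Cy5 signals of 2407, 1721.5, 1312.5 and 1097 units, so it was lower on each treated array while HEXIM1 was higher. Both genes lie on chromosome 17 with 0 protein-coding genes between them. EAF1, EAF2 and CDK7, also named after their values were seen, were the others past 2-fold at 6 h with MLLT3, at 1.18, 1.39 and 1.19. At 3 h the genes higher past 2-fold were ELL3 (1.20), named likewise, and EAF1 (1.15), and at 12 h they were EAF2 (1.499) and MLLT3. EAF1 fell short of 2-fold with Cy5 alone, at 0.86 at 3 h and 0.82 at 6 h. EAF1 and EAF2 bind the ELL elongation factors, and CDK7 is the kinase that acts on the polymerase ahead of CDK9.

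**Figure D5:**
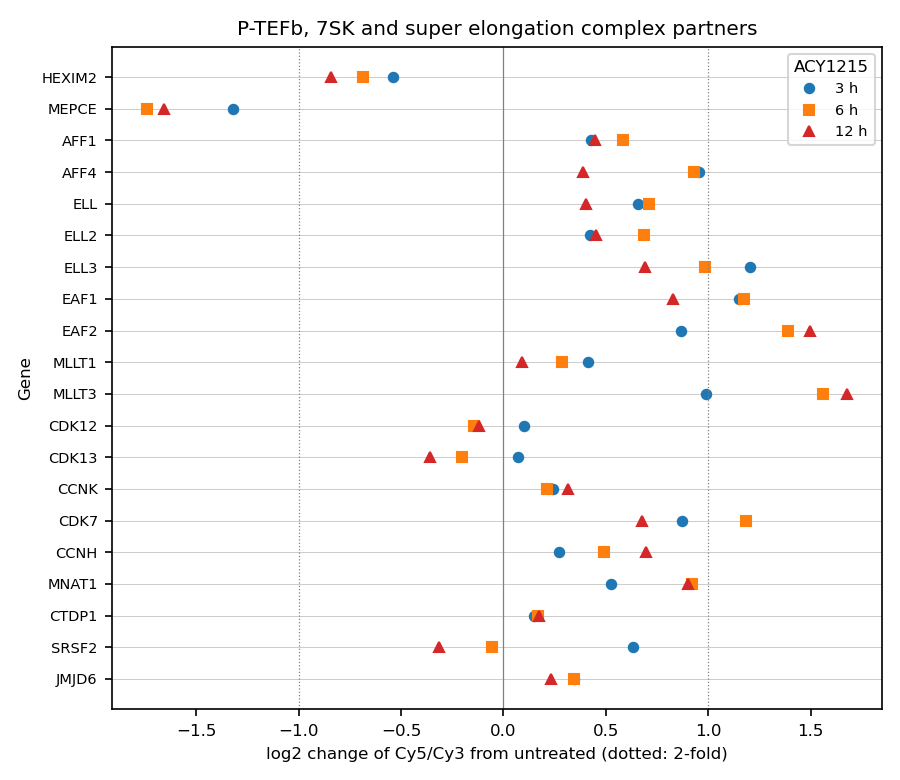
Log2 change of Cy5 over Cy3 from untreated cells (horizontal axis, 2-fold dotted) for the 20 partner genes (vertical axis) at 3 h (circles), 6 h (squares) and 12 h (triangles) of ACY1215, 1 array a time point. MEPCE lies beyond -1 at all 3 times and HEXIM2 to the left of 0, while 15 of 20 genes lie to the right of 0 at 6 h and at 12 h. At 12 h the count was 12 of 20 under median centring, where the median of all genes was -0.16. With the mean of all probes of a gene it was 13 of 20.

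Among 18562 genes clear of background on all arrays and outside damaged areas, the likeness to HEXIM1 was measured as the Euclidean distance over the 3 log2 changes. The nearest were SMN2 (0.03), LOC100130899 (0.04), TECPR2 (0.05), C2orf48 (0.06) and FAM222A (0.07). SMN2 shares nearly all of its sequence with SMN1, so its signal may not be its own. For BRD2 the nearest were NR3C1 (0.02), the glucocorticoid receptor gene, then TRIM63 (0.03), NSUN3 (0.03), MIB2 (0.04) and LOC100506047 (0.04). All 10 distances were below the technical SD of a single log2 change, so their order carries little weight.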

How the data were processed

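Per the file headers, the authors deposited for each array the Cy5 and Cy3 intensity of every spot with its local background, from Agilent Feature Extraction 12.0.1.1 on a design annotated to GRCh37, the log10 ratio of both dyes as corrected by this software, and flags for outliers and background. A second table by the authors holds log2 ratios, normalized in a way not given in the sources used here. The table supplied gene symbols and 1 alternative. The median spot intensity was used, since no mean intensity column was at hand. Of 62976 spots an array, 2075 were controls and 0 were saturated. In limma 3.58.1 (R 4.3.3) background was removed by normexp (offset 50, which pulls changes of dim probes toward 0), controls were dropped, outlier spots got no weight, and loess and Aquantile followed. Repeated spots were averaged, and each gene was represented by its probe with most Cy3 signal on average. The steps were tested on simulated data. Tables were made in Python 3.11.15 with numpy 2.4.6 and pandas 2.3.3.

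Each time point has 1 array, so no replicate spread, test or interval between conditions exists, and precision is limited by the number of arrays. Levels of different probes were not compared. Each array holds RNA of a whole culture, so less RNA in every cell and fewer cells with the RNA cannot be told apart. An area was taken as damaged where 10% or more of the spots were defective in a window 13 rows by 7 columns. The rule named the 7 genes, in each list the largest rise and fall at 12 h (not given for the marker lists, which only check the cells), and the 5 genes nearest to HEXIM1 and to BRD2. Any further gene was picked with its values in view, as the text says. Members and lists were chosen with earlier results of these data known. 10 alternatives were planned, and outlier spots were kept as a further one after the CDK9 spots had been seen. Promoters were matched by symbol to RefSeq, which gave 12 windows for the 7 genes. No probe sequence is shown, and no gene coordinates are given.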

Additional observations from a re-analysis of the deposited data

How the results depend on the processing

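No paired analysis was possible because only 1 array stands for each time. At 2-fold the count of the 7 genes was 0 at each time. It became 1 (LARP7, lower) at 6 h with a normexp offset of 1 and with median centring. Of 20342 genes measured, 469 and 405 were lower past 2-fold under these settings, against 192 before. At 12 h the count became 1 (LARP7, lower) with median centring, with Agilent's processed signals and with Cy5 alone. Of 20483 genes measured, 705, 708 and 314 were lower past 2-fold there, against 230 before. At 1.5-fold the count of the 7 genes was 1 at 3 h, 3 at 6 h and 1 at 12 h. The median of the 7 genes became -0.36 at 6 h and -0.39 at 12 h with median centring, where that of all genes was -0.08 and -0.16. The median of the 7 genes was -0.12 at 12 h with Cy5 alone. It was -0.035 at 3 h with outlier spots kept, a setting added after the data were seen. The cause of these shifts was not tested. Of the other alternatives for these counts and medians, 51 moved by less than the technical SD or kept the count. For single genes 183 values stayed within the technical SD and 27 moved further, of which CDK9 and CCNT2 at 12 h changed sign under settings named above. These tallies include alternatives that could not move a value, so they do not measure how stable the results are. Lifting the filter on dim probes changed none of the 7 genes. Leaving out damaged areas or keeping outlier spots changed CDK9 alone among them. Averaging probes left genes with 1 probe as they were. Over all genes, 479 were higher and 230 lower past 2-fold at 12 h, against 263 and 705 with median centring. At 3 h 355 were higher and 78 lower, against 281 and 246 with Cy5 alone. Dim probes, such as the second probes of BRD2 and CCNT1, have little signal over background, and small changes there were not detectable.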

Other observations

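Other bromodomain proteins, a list of 39 genes of which 36 were measured, had a median log2 change of -0.0017 at 3 h, -0.03 at 6 h and -0.16 at 12 h. At 12 h 26 of 36 were below 0 and 10 above 0, while 52.4% of all genes measured were above 0. Past 2-fold 1 gene was higher at 3 h, 1 was lower at 6 h and 1 at 12 h, beside 1.71%, 0.944% and 1.12% of all genes measured. With a normexp offset of 1, 4 genes were lower at 6 h and 5 at 12 h, beside 469 of 20342 and 520 of 20483 genes measured. The first, TRIM24, named after its values were seen, had a log2 change of 1.76 at 3 h on a spot in a damaged area, where its Cy5 signal was 448.5 units against 678.5 in untreated cells. With Cy5 alone the TRIM24 value was -0.55, and a second TRIM24 probe outside damaged areas gave 0.05. The second, ZMYND8, named likewise, had -1.0004 at 6 h between -0.58 at 3 h and -0.22 at 12 h, and the mean of its probes was -0.82 at 6 h. The third, KAT2A, is the acetyltransferase GCN5 that carries a bromodomain, and it was measured by 1 spot of 1 probe. It fell by 1.22 on the log2 scale at 12 h after values of -0.17 at 3 h and -0.54 at 6 h. Its Cy5 signals were 2368.5, 2020, 1398 and 826.5 units on the untreated, 3 h, 6 h and 12 h arrays. SP110, a nuclear body protein, had the largest value at 12 h, 0.58, after 0.18 and 0.40. With median centring the median of the list at 12 h was -0.50, where the median of all genes was -0.16.

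Pausing factors and substrates of P-TEFb, a list of 15 genes that were all measured, had a median log2 change of 0.13, 0.08 and 0.04. With median centring it was 0.23, -0.15 and -0.33, beside 0.08, -0.08 and -0.16 over all genes. CTR9, a subunit of the PAF1 complex that travels with the elongating polymerase, was measured by 1 spot of 1 probe. It had 1.08, 1.53 and 1.07, past 2-fold at each time. Over the alternatives its 6 h value was 1.18 or higher, while it fell short of 2-fold with Cy5 alone at 3 h (0.91) and 12 h (0.77), with median centring at 12 h (0.79), and with Agilent's processed signals (0.99) and the authors' table (0.9988) at 3 h. Higher past 2-fold on this list were 1, 2 and 1 of 15 genes at 3, 6 and 12 h, beside 1.71%, 2.81% and 2.34% of all genes measured. RTF1, named after its values were seen, was the other gene of the list past 2-fold, at 6 h, with 0.82, 1.01 and 0.63, and its 6 h value was 0.81 with Cy5 alone. PAF1, the subunit that names the same complex, had the lowest value at 12 h on the list, with -0.39, -0.59 and -0.57.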
